A study of Mus musculus with 6 samples.

Results

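The genes for the Fc receptors that bind IgG were examined in donor bone marrow cells recovered from irradiated mice early after bone marrow transplantation (BMT). The 6 members, taken by gene symbol, were Fcgr1, Fcgr3 and Fcgr4 (the activating ligand-binding chains), Fcgr2b (the inhibitory receptor), Fcer1g (the signalling chain shared by the activating receptors) and Fcgrt (the neonatal Fc receptor). All 6 were among the 24965 genes of the expression table, and all 6 were among the 13739 genes that exceeded 1 FPKM (fragments per kilobase of gene length, scaled to the total fragments of a library) in at least 1 library and were tested. The WT group held 3 libraries of CD45.2+ donor cells from marrow of WT mice, and the Hemgn-/- group held 3 libraries of CD45.2+ donor cells from marrow of mice lacking Hemgn, a gene best known from hematopoietic cells. Per the study's methods, the donors were young adult mice of both sexes on a C57BL/6 background, the deletion was made with zinc finger nucleases in all cells of the animal, and the WT mice were littermates. In both groups the recipients were CD45.1+ mice that had received a split irradiation of 9 Gy, and the donor cells were recovered 6 h after transplantation. The sort was CD45.2+Lin-Sca-1+ per the sample labels, to which the series design adds c-Kit+. The sources used here do not say whether 1 library pooled several recipients, so the spread between libraries may be partly technical.

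Activating Fc gamma receptors bind the constant part of IgG and signal through the tyrosines of an immunoreceptor activation motif (ITAM), which Src family kinases phosphorylate and which then recruits the kinase Syk. The inhibitory receptor carries an opposing motif (ITIM) that recruits the lipid phosphatase SHIP1, encoded by Inpp5d, so that the balance of both kinds of receptor sets the response of a macrophage, neutrophil or B cell to immune complexes. The neonatal receptor is related to MHC class I molecules, pairs with beta-2 microglobulin and returns IgG and albumin from endosomes to the blood.

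The fragment totals to which the FPKM values were scaled, as recovered from the steps of those values, were 23668015 to 28897360 a library. Hemgn itself was at 5.64, 2.96 and 4.68 FPKM in WT and at 0.755, 0.913 and 1.60 FPKM in Hemgn-/-, a log2 fold change of -1.37 (adjusted p = 0.0114, limma). The labelled cell type was checked against marker lists. Of the HSPC list, Kit, the stem cell factor receptor, stood at 5.50 to 7.24 FPKM over the 6 libraries and Ly6a (Sca-1) was its highest gene, at 8.27 to 17.3 FPKM, whereas the neutrophil granule gene Ngp stood at 26488 to 46692 FPKM and the B cell receptor chain Cd79b at 479.5 to 631.7 FPKM. Markers of mature myeloid cells and B cells therefore went against the labelled sort, and the cells are called donor cells below. Summed over its 13 genes, the neutrophil list ran from 77201 to 83112 FPKM in WT and from 51438 to 56991 FPKM in Hemgn-/-, and the 16-gene macrophage and monocyte list from 23216 to 25913 and from 16779 to 20898 FPKM. Nearly all of the latter sum was Lyz2, a gene that neutrophils also express, and the other 15 genes overlapped, at 662 to 693 FPKM in WT and 598 to 694 FPKM in Hemgn-/-. The B cell list of 10 genes ran from 1231 to 1298 FPKM in WT and from 1474 to 1649 FPKM in Hemgn-/-, and the erythroid list of 9 genes from 466 to 552 and from 42.7 to 62.0 FPKM. In such bulk samples fewer cells of a type and less RNA per cell cannot be told apart.

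Of the 6 genes, 4 lay close together on mouse chromosome 1 (GRCm38 build). Fcgr2b was at chr1:170958617-170976547 on the minus strand, Fcgr4 at chr1:171018920-171029761 on the plus strand, Fcgr3 at chr1:171051174-171064935 on the minus strand and Fcer1g at chr1:171229572-171234365 on the minus strand. Fcgr1 was at chr3:96282909-96293969 and Fcgrt at chr7:45092990-45103851, both on the minus strand. The known signalling motifs of the activating and of the inhibitory arm are shown from the coding sequences of the first-listed GENCODE transcripts, because the tests below set both arms against each other. The loose ITIM pattern alone does not separate the arms, since it also matched at 5 places in 4 other members (Fcgr1, Fcgr4, Fcer1g and Fcgrt). The capitals mark the tyrosine codons. The Fcer1g ITAM spans codons 65 to 79 of 86, and the Fcgr2b ITIM spans codons 317 to 322 of 340 (chr1:170961071-170961088, coding exon).
Fcer1g ITAM: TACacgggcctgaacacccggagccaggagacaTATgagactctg
Fcgr2b ITIM: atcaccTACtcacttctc

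Fcgr2b and Fcgr3 are close relatives, and this bears on how far short reads can assign fragments to one or the other. Their coding sequences matched at 679 of 785 aligned bases (86.5%), while the other pairs among Fcgr1, Fcgr2b, Fcgr3 and Fcgr4 matched at 64.0% to 67.2%. The longest identical run was 129 bases, at coding positions 278 to 406 of Fcgr2b and 263 to 391 of Fcgr3, in exons that encode part of the extracellular region. It is shown because a fragment lying wholly inside it cannot be assigned to either gene.
Fcgr2b and Fcgr3 shared run: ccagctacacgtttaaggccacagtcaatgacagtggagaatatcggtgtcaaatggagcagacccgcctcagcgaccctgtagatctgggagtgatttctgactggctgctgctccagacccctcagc
Windows of 100 bases shared with another gene's transcripts made up 4.76% of the Fcgr2b and 6.24% of the Fcgr3 coding sequence, windows of 150 bases made up none, and Fcgr1, Fcgr4, Fcer1g and Fcgrt shared no window of 50 bases. Values of Fcgr2b and Fcgr3 are therefore slightly uncertain as separate genes, and their sum is given beside them below. An antisense gene, Gm38204, overlapped Fcgr2b but did not exceed 0.0631 FPKM in any library, and a small nuclear RNA gene, Gm26110, within Fcgr4 ranged from 0 to 3.31 FPKM.

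Promoter sequence was examined for letters of elements that are textbook regulators of such genes. The gamma-activated site (GAS, TTCNNNGAA) is an element of promoters that respond to interferon-gamma, the core GAGGAAG is bound by PU.1, a factor of myeloid and B cells, and the core of interferon-stimulated response elements (ISRE) is bound by interferon regulatory factors. All were searched on both strands of the RefSeq promoter entries (GRCm38.p6). The 150 bases before the start site are shown for the activating chains and for Fcgr2b, with matches in capitals. They lie at chr3:96293970-96294119 (minus strand) for Fcgr1, chr1:171059395-171059544 (minus strand) for Fcgr3, chr1:171018776-171018925 (plus strand) for Fcgr4 and chr1:170976072-170976221 (minus strand) for Fcgr2b.
Fcgr1: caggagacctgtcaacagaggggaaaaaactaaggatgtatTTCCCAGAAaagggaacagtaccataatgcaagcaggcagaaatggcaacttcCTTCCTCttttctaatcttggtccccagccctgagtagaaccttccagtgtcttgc
Fcgr3: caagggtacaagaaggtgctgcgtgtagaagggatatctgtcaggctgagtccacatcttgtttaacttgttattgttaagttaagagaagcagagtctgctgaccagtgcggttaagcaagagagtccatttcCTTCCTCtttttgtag
Fcgr4: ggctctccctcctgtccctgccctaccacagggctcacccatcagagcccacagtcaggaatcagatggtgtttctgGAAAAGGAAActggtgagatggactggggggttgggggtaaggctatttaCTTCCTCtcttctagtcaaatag
Fcgr2b: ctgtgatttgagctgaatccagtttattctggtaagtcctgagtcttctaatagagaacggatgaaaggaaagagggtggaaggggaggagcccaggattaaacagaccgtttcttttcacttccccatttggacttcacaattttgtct
Fcgr1 held a GAS match 109 bases and a PU.1 core match 56 bases before its start site. Fcgr3, for which RefSeq gives start sites at adjacent positions, held a PU.1 core match 16 bases before the one shown, or 7 bases before the other. Fcgr4 held a PU.1 core match at 23 bases and an ISRE core match at 73 bases, and no matches overlapped. No match to these letters was found in the windows of Fcgr2b, Fcer1g or Fcgrt. The search covered full promoter entries, which are longer than the windows shown and run past the start site. Of all 32851 such entries, 8.30% held the GAS letters, 13.6% the PU.1 core and 3.44% the ISRE core. A match is therefore a description of the letters and no measure of binding.

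**Figure D1:**
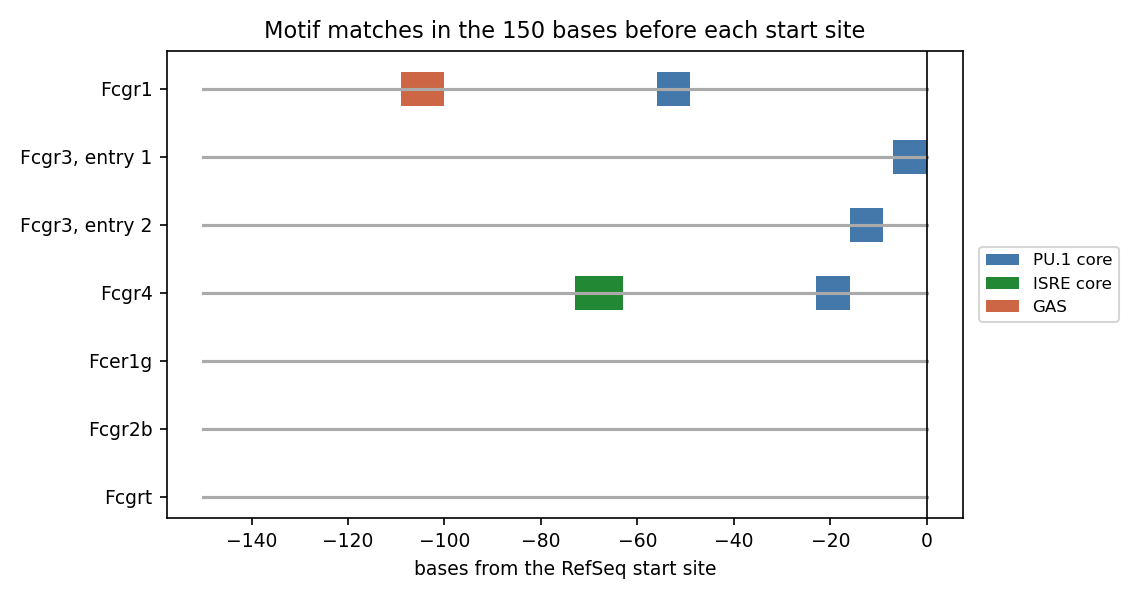
Motif matches (coloured boxes) by distance in bases from the RefSeq start site, within the 150 bases before it (grey lines), for each member and both Fcgr3 entries. Matches sit in the activating chains Fcgr1 (109 and 56 bases before the start), Fcgr3 (7 or 16) and Fcgr4 (73 and 23), and no box lies in the Fcer1g, Fcgr2b and Fcgrt windows.

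Transcripts of Fcer1g and Fcgr3 dominated the family in these donor cells. As means over the 6 libraries, Fcer1g was at 281 FPKM, Fcgr3 at 268, Fcgr4 at 103, Fcgr2b at 24.7, Fcgrt at 21.8 and Fcgr1, the high-affinity receptor, at 2.25 FPKM. Fcer1g was above Fcgr3 in 5 of 6 libraries and their ranges overlapped (245 to 316 against 229 to 311 FPKM), so this pair did not differ beyond its spread. The lowest Fcgr3 value was 2.03 times the highest Fcgr4 value, and the lowest Fcgr4 value was 3.40 times the highest Fcgr2b value, so those steps exceeded the spread. Fcgr2b and Fcgrt overlapped and their order differed between groups: the Fcgrt mean was the higher in WT (24.5 against 23.7 FPKM) and the Fcgr2b mean in Hemgn-/- (25.7 against 19.2 FPKM), and this difference in order was not tested. The Fcgr2b level depends on the length used: the FPKM values correspond to the 5790 bases of all its exons joined, and over the 3544 bases of its first-listed transcript it would average 40.3 FPKM against 25.9 for Fcgrt, above it in 6 of 6 libraries. The comparison between groups does not depend on this length.

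None of the 6 members passed an adjusted p of 0.05 in the comparison of Hemgn-/- with WT, in a fit where 6.46% of all genes tested did (887 genes, of which 600 or 4.37% were higher and 287 or 2.09% lower). The split over all genes moved with the scaling, to 342 higher and 387 lower by median ratios, 368 and 346 by quantiles and 1062 and 238 at the same FPKM total. The largest difference was in Fcgr1, whose mean was 2.10 times as high in Hemgn-/-, and it was followed by a lower Fcgrt (0.787 times) and a higher Fcgr3 (1.19 times). These 3 were at an unadjusted p under 0.05, as were 21.4% of all genes, and limma-voom on the recovered fragments also called 0 members. The study's thresholds, an unadjusted p under 0.05 with at least 1.5-fold, were also applied to this limma fit. By them 1 member (Fcgr1) qualified, as higher, beside 4.10% of all genes higher and 2.74% lower. These shares are not the study's own counts, in which more genes were lower than higher. Changes are on the log2 scale of FPKM + 1, on which the median of all genes tested was 0.087 and that of the 6 members 0.13, with 5 above 0 and 1 below.

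Fcgr1, the high-affinity IgG receptor of monocytes and macrophages, was at 1.40, 1.19 and 1.76 FPKM in WT and at 2.21, 3.75 and 3.18 FPKM in Hemgn-/-. Every Hemgn-/- library was above every WT library, with replicate 2 the highest. The log2 fold change was 0.71 (SE 0.19, 95% interval 0.28 to 1.14, adjusted p = 0.0641, limma), which did not pass the test. The gene rests on few fragments, 79 to 254 a library, and since the added 1 FPKM shrinks the change of so low a gene, the recovered fragments gave a log2 fold change of 1.04 (adjusted p = 0.0653, limma-voom). The call depended on the setting, since Fcgr1 passed at an adjusted p of 0.0349 when every library was scaled to the same FPKM total and at 0.0435 without Hemgn-/- replicate 1.

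Fcgr3, the low-affinity activating receptor of neutrophils, macrophages and NK cells, was at 240.2, 229 and 265 FPKM in WT and at 268, 311 and 292 FPKM in Hemgn-/-. The groups did not overlap, although WT replicate 3 and Hemgn-/- replicate 1 nearly met. Its log2 fold change was 0.24 (SE 0.080, 95% interval 0.06 to 0.43, adjusted p = 0.120, limma), and of the settings run it passed only when libraries were scaled to the same FPKM total (0.33, adjusted p = 0.0274). Median-ratio scaling moved it the other way, to 0.14 (adjusted p = 0.385, limma). Fitted with Fcgr2b as 1 gene, the change was 0.21 (adjusted p = 0.126, limma). Groups that did not overlap with Hemgn-/- higher were seen in 2 of 6 members, Fcgr1 and Fcgr3, and in 19.2% of all genes tested. No member was lower without overlap, against 8.18% of all genes.

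Fcgr4, an activating receptor for IgG2a and IgG2b found on monocytes and neutrophils, was at 99.3, 113 and 93.1 FPKM in WT and at 97.3, 108 and 106 FPKM in Hemgn-/-. The groups overlapped fully, and the log2 fold change of 0.03 (95% interval -0.17 to 0.23, adjusted p = 0.868, limma) was below the median of all genes. Under median-ratio scaling, which moved that median from 0.087 to 0.008, it was -0.07. Fcer1g, the gamma chain that carries the ITAM shown above, was at 274, 245 and 279 FPKM in WT and at 259, 315 and 316 FPKM in Hemgn-/-. Replicates 2 and 3 of Hemgn-/- were the highest of the 6 libraries while replicate 1 lay within the WT range. The log2 fold change was 0.15 (95% interval -0.06 to 0.37, adjusted p = 0.389, limma), or 0.25 (adjusted p = 0.123, limma) without Hemgn-/- replicate 1.

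Fcgr2b, the inhibitory receptor and the Fc gamma receptor of B cells, was at 24.5, 23.2 and 23.6 FPKM in WT and at 26.4, 27.4 and 23.2 FPKM in Hemgn-/-. Replicate 3 of Hemgn-/- lay at the bottom of the WT range and the other two above it. The log2 fold change was 0.11 (95% interval -0.10 to 0.31, adjusted p = 0.546, limma). Fcgrt was at 25.3, 27.3 and 20.8 FPKM in WT and at 15.8, 22.2 and 19.7 FPKM in Hemgn-/-. It was the member whose fitted value was below 0, with Hemgn-/- replicate 2 inside the WT range and the other two below it. The log2 fold change was -0.33 (SE 0.14, 95% interval -0.66 to -0.01, adjusted p = 0.217, limma), or -0.21 (adjusted p = 0.429, limma) without Hemgn-/- replicate 1.

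**Figure D2:**
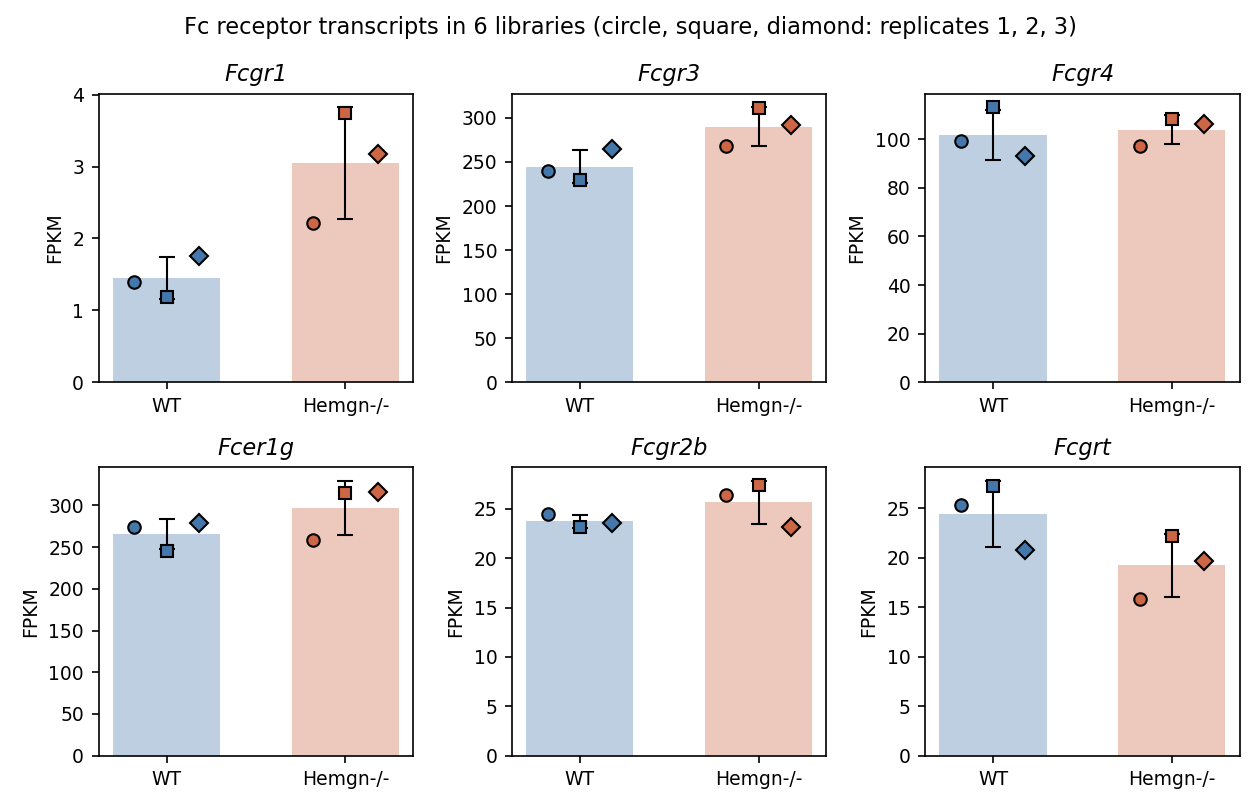
FPKM of each member in the 3 WT (blue) and 3 Hemgn-/- (orange) libraries, with bars for the mean, error bars for the SD and marker shapes for the replicate. Fcgr1 and Fcgr3 are the panels in which the groups do not overlap, Fcgr1 from 1.19 to 1.76 against 2.21 to 3.75 FPKM, and Fcgrt is the panel with the lower Hemgn-/- mean.

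**Figure D3:**
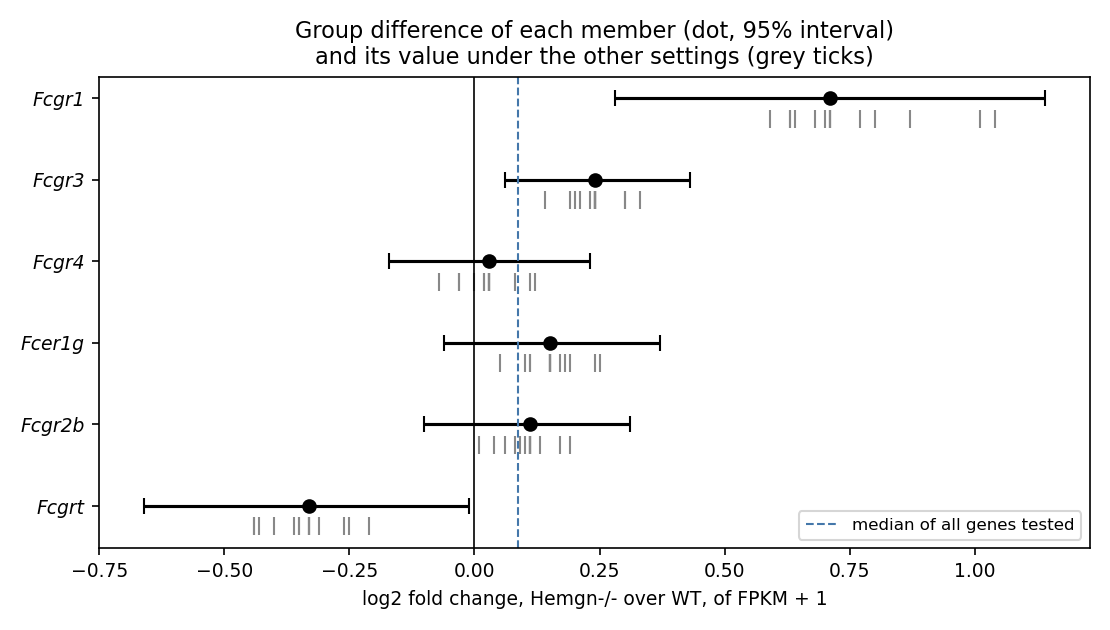
Log2 fold change of Hemgn-/- over WT for each member on the scale of FPKM + 1 (dot) with its 95% interval, the values under the other processing settings as grey ticks, and the median of all genes tested (0.087) as a dashed line. The intervals of Fcgr1 and Fcgr3 lie above 0 and that of Fcgrt just below it, and the ticks of Fcgr4 fall on both sides of 0.

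The balance of the family was compared as ratios within a library, which scaling between libraries cannot move. The log2 ratio of the activating chains (Fcgr1, Fcgr3 and Fcgr4 summed) to Fcgr2b was 3.80, 3.89 and 3.93 in WT and 3.80, 3.95 and 4.11 in Hemgn-/-. The difference of 0.08 (WT 3.87 ± 0.067, Hemgn-/- 3.95 ± 0.16, SD, n = 3 each) was within the spread between libraries (p = 0.500, two-sided exact permutation test). Lengths of the first-listed transcripts gave lower ratios, 3.43 and 3.52, with a similar difference of 0.09 (p = 0.400, two-sided exact permutation test). The log2 ratio of Fcer1g to the activating chains was -0.31, -0.49 and -0.37 in WT and -0.50, -0.43 and -0.34 in Hemgn-/-, which overlapped (difference -0.03, p = 0.700, two-sided exact permutation test). With 3 libraries a group, the smallest p this test can give is 0.1. Fcgr3 alone was 9.82, 9.91 and 11.2 times Fcgr2b in WT and 10.1, 11.4 and 12.6 times in Hemgn-/-, so the groups overlapped there as well.

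**Figure D4:**
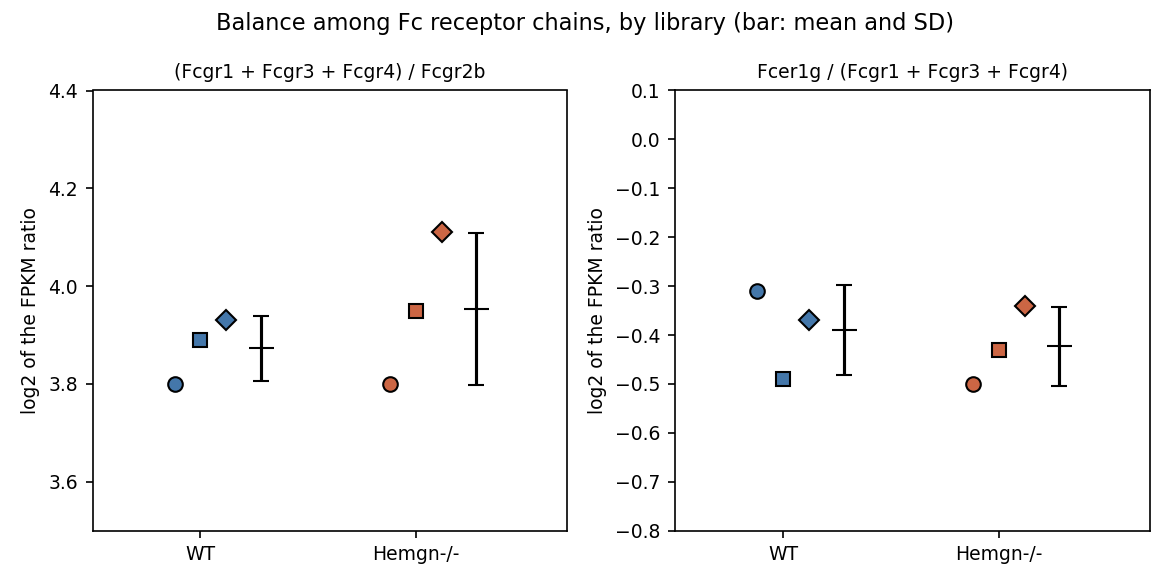
Log2 ratio of summed activating chains to Fcgr2b (left) and of Fcer1g to the activating chains (right) in each library, with the mean and SD of each group as a bar beside the points. WT and Hemgn-/- libraries overlap in both panels, with means of 3.87 and 3.95 on the left and of -0.39 and -0.42 on the right.

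The genes most like each member across the 6 libraries are given as a description, by Pearson correlation of log2(FPKM + 1) and with no test. The libraries span both groups, so genes that differ between the groups correlate with each other, and the values are the highest of many compared. Among the other 194 genes of the lists used here, Fcgr1 ran closest to Clec4n (dectin-2, a fungal lectin receptor that signals through Fcer1g; r = 0.99), Fcgr3 (0.98) and Pax5, a B cell factor (0.97). Fcgr3 ran closest to Fcgr1, Clec4n (0.97) and the adaptor Lat2 (0.95). Fcer1g ran closest to the neutrophil gene Retnlg (0.96), Ccr9 (0.92) and Ly6a (0.91), and Fcgrt closest to Ly6g (0.96), Ly6c2 (0.96) and Prtn3 (0.94), all genes of neutrophils, monocytes or their precursors. For Fcgr4 the closest were Cbl (0.89), Ncf1 (0.89) and Rab5a (0.87), and for Fcgr2b Cd4 (0.85), Gab2 (0.83) and Fcer1a (0.82). Between members, Fcgr1 and Fcgr3 had an r of 0.86 and 0.87 with Fcer1g and of 0.15 and 0.01 with Fcgr4.

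Beyond the members, 98 of the 107 genes on 7 lists were tested, lists around Fc receptor signalling with an interferon-gamma list among them. Of these genes 26 rose and 1 fell, where over all genes tested 4.37% rose and 2.09% fell. Of the 26 that rose, 12 were in the interferon-gamma list, and outside it 14 of 84 rose. All these lists were chosen with earlier results of these data known, so their counts are not independent evidence. The 26 became 17 under median-ratio scaling, 19 under quantile normalization and 36 under the same FPKM total. Of the 27 called in either direction, the count was 12 without Hemgn-/- replicate 3 and 14 without WT replicate 1.

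Among 10 tested relatives that bind other immunoglobulins or resemble Fc receptors, 3 rose and none fell by limma (median log2 fold change 0.28), and limma-voom called 3 higher and 1 lower. All 3 are best known from B cells. Fcer2a (CD23, the low-affinity IgE receptor) was at 77.5, 85.6 and 76.1 FPKM in WT and at 162, 157 and 157 FPKM in Hemgn-/-, 1.99 times as high (log2 0.98, adjusted p = 1.40e-04, limma). Fcmr, the IgM receptor, rose from 202 ± 8.18 to 320 ± 10.1 FPKM (SD, n = 3; log2 0.66, adjusted p = 6.91e-04, limma), and Fcrl1, an Fc receptor-like protein of B cells, from 12.9 ± 2.16 to 24.3 ± 1.00 FPKM (log2 0.87, adjusted p = 0.00451, limma). The B cell list moved beside them, with 5 of 10 genes higher, none lower and a median of 0.31; its part in these values was not tested. Fcrla, an intracellular relative that B cells also express, was at 97.7 ± 7.30 and 98.4 ± 5.37 FPKM (log2 0.01, adjusted p = 0.951, limma). Fcer1a, the alpha chain of the high-affinity IgE receptor, which also uses Fcer1g, was at 16.4 ± 0.681 and 21.0 ± 2.18 FPKM without overlap (log2 0.33, adjusted p = 0.0917, limma). Trim21, named after its values were seen, encodes a cytosolic receptor for the IgG constant part and had the widest difference of the list, at 2.43, 0.684 and 2.93 FPKM in WT and 0.167, 0.278 and 0.298 FPKM in Hemgn-/-. The groups did not overlap, and it missed the threshold by limma (log2 -1.19, adjusted p = 0.0680) but was the gene called lower by limma-voom (adjusted p = 0.0331). Fcrl5, another B cell relative outside the naming rule, was also lower without overlap, at 2.14 ± 0.966 and 0.882 ± 0.316 FPKM (log2 -0.71, adjusted p = 0.149, limma).

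Of 10 tested ITAM adaptors and Fcer1g or Tyrobp partners, 2 rose by limma, both lectin receptors of myeloid cells that signal through Fcer1g (median 0.21), while limma-voom called 1 (Clec4d). Clec4n went from 5.47 ± 0.745 to 10.1 ± 2.06 FPKM (log2 0.76, adjusted p = 0.0265, limma) and Clec4d from 83.3 ± 6.83 to 113 ± 8.61 FPKM (log2 0.44, adjusted p = 0.0210, limma). Tyrobp, the other main ITAM adaptor of myeloid cells, was at 41.3 ± 7.93 and 40.6 ± 6.76 FPKM (log2 -0.02, adjusted p = 0.963, limma).

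Of 29 kinases and adaptors downstream of the activating receptors, 5 rose and none fell by limma (median 0.20), while limma-voom called 6 higher and 0 lower. Lat2 was not among those called by limma-voom (adjusted p = 0.0505). Those named by the rule were Lyn, a Src family kinase, which rose by log2 0.36, Btk by 0.34, the phosphoinositide 3-kinase subunit Pik3cd by 0.36 and the adaptor Lat2 by 0.51 (adjusted p between 0.0219 and 0.0429, limma). Syk, which docks on the phosphorylated ITAM, was at 39.1 ± 0.812 and 42.1 ± 3.63 FPKM (log2 0.10, adjusted p = 0.546, limma). On the inhibitory side, 4 of 14 rose and none fell (median 0.18): Ptpn6, which encodes the phosphatase SHP-1, from 245 ± 5.01 to 322 ± 15.4 FPKM (log2 0.39, adjusted p = 0.00737, limma), and the inhibitory receptors Cd33, Cd300a and Lilrb4a by log2 0.43, 0.41 and 0.36. Inpp5d, which encodes the SHIP1 that the Fcgr2b ITIM recruits, was at 65.4 ± 1.96 and 79.4 ± 4.15 FPKM with no overlap. Inpp5d did not pass by limma (log2 0.28, adjusted p = 0.0574) but passed by limma-voom (adjusted p = 0.0221), which called 5 genes of this list higher and 0 lower.

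Of 12 phagocytic cup and oxidase genes, 1 fell and none rose (median 0.03). Cybb, the catalytic subunit of the phagocyte NADPH oxidase, was at 619, 626 and 599 FPKM in WT and at 473, 446 and 481 FPKM in Hemgn-/- (log2 -0.40, adjusted p = 0.00531, limma). It moved beside the neutrophil list, in which 5 of 13 genes fell, 1 rose and the median was -0.33, with 4 genes above 0 and 9 below. Ngp was at log2 -0.73 (adjusted p = 1.31e-04, limma), while Cxcr2, the gene that rose, was at 0.58 (adjusted p = 6.63e-04, limma). Mmp8, Mmp9 and Retnlg of that list were at 0.01, 0.08 and 0.10 and were not called. Cxcr2, Mmp8 and Mmp9 were named after their values were seen. The part of that list in the Cybb value was not tested. None of the 9 tested partners of Fcgrt was called in either direction by limma (median 0.10), while 2 were at an unadjusted p under 0.05 and 0 passed by limma-voom. B2m, which encodes the light chain that Fcgrt needs, was at 1499.9, 1485 and 1498 FPKM in WT and at 1244, 1695 and 1502 FPKM in Hemgn-/- (log2 -0.02, adjusted p = 0.917, limma).

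Fcgr1 is a textbook interferon-gamma-induced gene, and other responders to this cytokine were set beside it. Of the 14 genes, 12 rose and none fell, with a median of 0.68. The list was drawn up with earlier results of these samples known, so its direction is not independent evidence. Cxcl10, a chemokine, went from 6.53 ± 1.05 to 17.8 ± 2.41 FPKM (log2 1.32, adjusted p = 0.00158, limma), Cxcl9 from 1.24 ± 0.246 to 4.14 ± 1.55 FPKM (log2 1.16, adjusted p = 0.0176, limma) and the guanylate-binding protein gene Gbp2 from 28.2 ± 2.54 to 61.4 ± 1.81 FPKM (log2 1.10, adjusted p = 2.63e-04, limma). Ciita, the switch of MHC class II genes, rose by log2 0.88 (adjusted p = 0.00289, limma).

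**Figure D5:**
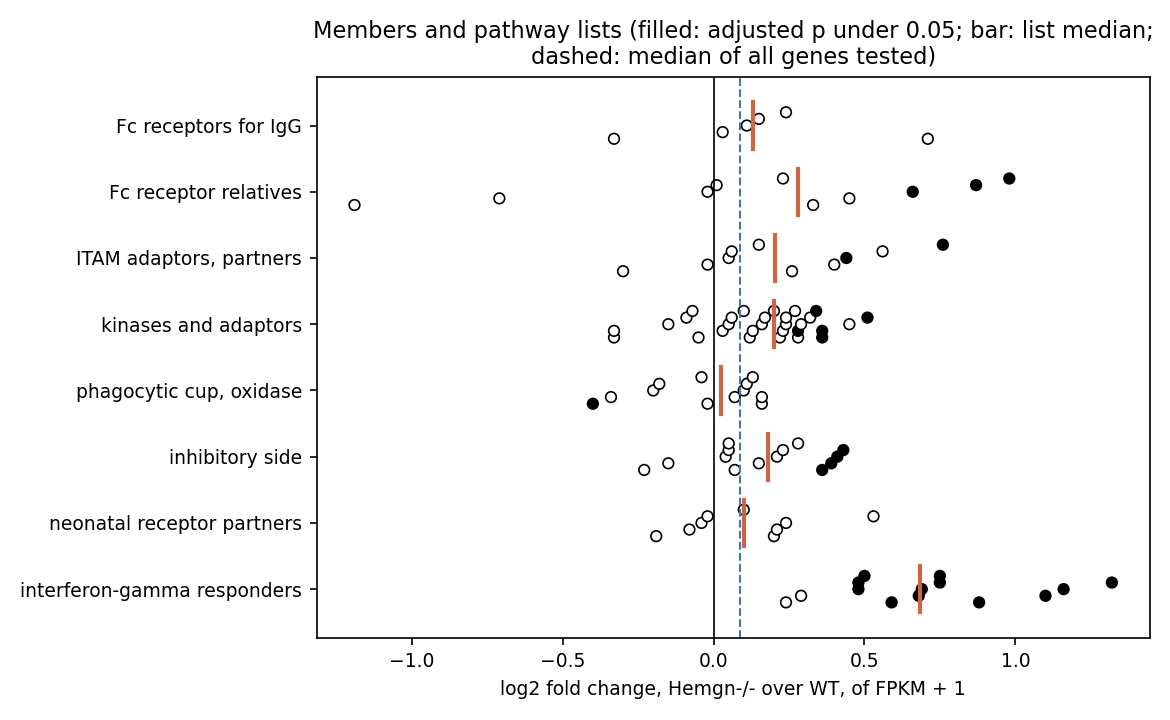
Log2 fold change of every tested gene of the 6 members and of the 7 lists around them (filled dots passed an adjusted p of 0.05, orange bars are list medians, the dashed line is the median of all genes tested, 0.087). No dot of the Fc receptors for IgG is filled, and the interferon-gamma list has the highest median, 0.68.

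The cells that carry these receptors left their own marks in the same libraries. Of the 15 tested macrophage and monocyte markers 3 rose and 3 fell (median 0.02). Those that rose, named after their values were seen, were the monocyte chemokine receptor Ccr2 (from 15.7 ± 0.599 to 32.7 ± 3.92 FPKM, log2 1.00, adjusted p = 0.00140, limma), the growth factor receptor Csf1r (log2 0.50) and the macrophage gene Adgre1 (log2 0.51), and those that fell were Lyz2 (log2 -0.37, adjusted p = 0.0454, limma), C1qb (-0.44) and Vcam1 (-0.66). Fcgr1, a receptor of these cells that was not called itself, moved with the 3 that rose and against the 3 that fell. Without overlap between groups, 4 tested genes of this list were higher in Hemgn-/- and 6 lower. By limma-voom 2 were called higher and 3 lower, with Adgre1 not called (adjusted p = 0.0584), so the list had no common direction. Of the 10 tested T and NK cell markers 4 rose and none fell by limma, against 2 higher by limma-voom (median 0.35). Those that rose, named after their values were seen, were Prf1 (log2 0.69), Ncr1 (0.59), Gzma (0.49) and Klrd1 (0.48), of which Prf1 and Ncr1 passed by limma-voom. The T cell genes Cd3e, Cd3g, Cd4 and Cd8a were not called, and Nkg7, the highest in level, was at -0.04 (adjusted p = 0.883, limma). In the dendritic cell list 1 of 7 rose by limma (median 0.34), and limma-voom called 2 higher. The gene that rose was Siglech (log2 1.15, adjusted p = 0.00280, limma), while Bst2, highest in level, was at 0.21 (adjusted p = 0.410, limma). In the sinusoidal endothelial list none of 7 was called by limma (median -0.10) and 2 were at an unadjusted p under 0.05. The 1 gene that passed by limma-voom was Stab2, which was lower (log2 -0.76, adjusted p = 0.0335, limma-voom). Pecam1, highest in level, was at 0.42 (adjusted p = 0.114, limma). Siglech and Stab2 were named after their values were seen. The eosinophil, basophil and mast cell list had 3 of 9 lower and none higher. The genes that fell, named after their values were seen, encode eosinophil granule proteins: Epx (0.107 times WT, log2 -2.72), Prg2 (0.248 times) and Prg3 (0.293 times), while the basophil gene Prss34, the highest of the list, was at 0.06 (adjusted p = 0.650, limma), and the erythroid list had 3 of 8 lower, with Hba-a1 at -4.01 (adjusted p = 5.00e-06, limma). In the HSPC list 2 of 12 rose (median 0.38), and Ly6a was at 0.58 (adjusted p = 0.0642, limma). Among mast cell genes of the eosinophil, basophil and mast cell list, Tpsb2 was at 0 in 5 libraries. Cma1 stood at 0.645 to 1.68 FPKM and Cpa3 at 53.4 to 74.6 FPKM over the 6 libraries. These 3 genes lay outside the naming rule. The part of these cell types in the member values was not tested.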

How the data were processed

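Per the labels and methods, RNA of sorted donor cells was sequenced as Illumina paired-end libraries (Smart-Seq2 per the series design, TruSeq per the labels). The submitters' processing notes name HISAT2 2.1.0, Bowtie2 2.2.3, TopHat2, HTSeq 0.6.0 and GRCm38, without roles; the annotation version is not given in the sources used here. The deposited table gives FPKM per gene and library, computed by the authors. Symbols and lengths came from GENCODE M21 (24921 of 24965 IDs matched). Low FPKM values were whole multiples of 1 fragment for 95.4% of 13466 low genes (tolerance 0.02 fragments), which gave fragment numbers and depth.

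Hemgn-/- was compared with WT (3 libraries each) by limma 3.58.1 (R 4.3.3) on log2(FPKM + 1), genes above 1 FPKM in at least 1 library, eBayes with trend, two-sided, Benjamini-Hochberg adjusted over 13739 genes. Ratios used exact permutation tests. The fit was tested on simulated data, where it called 110 of 200 genes changed 2-fold on the FPKM + 1 scale and 5 unchanged genes. A gene that was not called may therefore still have changed. Alternatives covered the pseudocount, filters, scaling, the eBayes trend, limma-voom on recovered fragments (1065 genes called), a replicate block and leaving out each library. The members, lists and motifs were chosen with earlier results of these data known. Named genes were the members, Hemgn and 8 fixed partners, up to 4 called and non-overlapping genes per pathway list by size of change, the highest gene of each of the 9 marker lists and the 3 list genes most correlated with each member. Fold changes of low genes are understated on the FPKM + 1 scale. Python, numpy, pandas and matplotlib served for tables and figures. Some items are not reported here.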

Additional observations from a re-analysis of the deposited data

How the results depend on the processing

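The 6 members were refitted under at least 15 other processing settings each. Calls appeared when libraries were scaled to the same FPKM total, with 2 members called, Fcgr1 (0.77) and Fcgr3 (0.33), and without Hemgn-/- replicate 1, with 1 member called (Fcgr1, 0.87); all other settings called 0. Leaving out 1 library moved the log2 fold change of Fcgr1 between 0.59 and 0.87, and turned Fcgr4 without WT replicate 3 (range -0.03 to 0.11). Fcgr4 was at -0.07 under median-ratio scaling and -0.03 under quantile normalization. The sign of Fcgr1, Fcgr2b, Fcgr3, Fcer1g and Fcgrt did not turn in any setting run, but Fcgr2b came to 0.01, Fcer1g to 0.05 and Fcgr3 to 0.14 under median-ratio scaling, which moved all genes. With 1 library left out, Fcgr2b ranged from 0.06 to 0.17, Fcgr3 from 0.19 to 0.30, Fcer1g from 0.10 to 0.25 and Fcgrt from -0.44 to -0.21. Without Fcgr3, the activating to inhibitory difference was -0.06 and the Fcer1g difference 0.10; leaving out 1 library gave -0.00 to 0.16 and -0.08 to 0.01, so neither direction was stable. Over the whole table, 390 genes were called with eBayes without a trend, 466 with no filter on low values and 373 to 688 with 1 library left out, where 373 was reached without Hemgn-/- replicate 3, and leaving out WT replicate 1, WT replicate 3 or Hemgn-/- replicate 2 gave 470, 494 and 525. Of the pathway lists, 11 genes were called without a trend, against 27, and 12 to 25 with 1 library left out (12 without Hemgn-/- replicate 3, 14 without WT replicate 1). The cause of these shifts was not tested. The pairing of replicate numbers was checked, and same-numbered libraries did not deviate together (correlations -0.043, -0.0094 and 0.011); with the replicate block 636 genes, 21 pathway genes and 0 members were called. Counting Fcgr2b and Fcgr3 as 1 gene and the transcript lengths were chosen after seeing the data. For Fcgr1, 79 fragments carry a counting error of 11.3%, which limits its precision.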
